A study of Mus musculus with 6 samples.

Results

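The genes described here are 30 genes of macrophages and other leukocytes, from the CSF1 receptor Csf1r and the complement C1q chains to the leukocyte tyrosine phosphatase Ptprc (CD45). They were chosen by name, as genes read by a probe set that the platform annotation ties to exactly 1 gene symbol, and all 30 are on the array, among 18193 genes so read. Of the 48 probe sets for them, the brightest per gene over all 6 arrays stands for the gene. They were measured in wild-type FVB/N embryos of unknown sex at embryonic day 13 (Theiler stage 21). The bladder neck and urethra were digested with trypsin, and a needle was used to part the epithelium (arrays 1, 2 and 5) from the mesenchyme around it (arrays 1, 2 and 3). No genotype, treatment or time differs between these 2 groups, and no sample was pooled. RNA was amplified in 2 rounds and hybridised to the Affymetrix Mouse Genome 430 2.0 array.

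Tissue macrophages of the embryo arise from yolk sac and fetal liver precursors, enter organs early and depend on the CSF1 receptor, which binds the ligands CSF1 and IL-34. PU.1, the product of Spi1, is the ETS factor that drives the myeloid programme and binds purine-rich sites in the promoters of many of its genes. Macrophages clear dying cells, take up immune complexes through Fc receptors that signal through adaptors with tyrosine motifs (ITAMs), and secrete complement C1q. In most organs they lie in connective tissue.

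For the genes that passed the test below in either fit, the promoter stretch just before the annotated start is shown because promoters of myeloid genes are known for PU.1 sites and few TATA boxes. Of the 30 genes, 21 have a promoter in the RefSeq table of mouse build GRCm38.p6 (250 bases before to 50 after each start, 26 promoters). Those not in it are Csf1r, Spi1, C1qa, Tyrobp, Adgre1, Cd14, Cd86, Itgb2 and Cd52. Searched on both strands were the PU.1 core GAGGAA, its longer form GAGGAAGT, which contains the shorter one, and the TATA box core TATAAA. The short form GAGGAA was found for 16 of 21 genes (76.2%), against 31.3% of all 27025 genes in the table. GAGGAAGT was found for 5 genes (23.8%, against 3.69%), namely C1qc, Ctss, Pf4, F13a1 and Cd53. TATAAA was found for Ctss, Ptprc and Laptm5 (14.3%, against 15.7%). Those matches began at -233, -187 and -218 from the start, and the ones in Ctss and Ptprc were on the antisense strand. Genes with several annotated starts have more than 1 window in these shares. A match is a description of the letters and not a measured binding site. Shown are the 80 bases before the start, 5′ to 3′ on the gene's strand, with GAGGAA or its reverse complement in capitals.
C1qb (chr4:136886201-136886280, minus strand): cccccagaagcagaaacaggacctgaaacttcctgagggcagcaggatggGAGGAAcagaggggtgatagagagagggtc
Mrc1 (chr2:14229334-14229413, plus strand): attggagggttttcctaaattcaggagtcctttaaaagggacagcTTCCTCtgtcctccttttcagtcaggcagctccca
Stab1 (chr14:31168642-31168721, minus strand): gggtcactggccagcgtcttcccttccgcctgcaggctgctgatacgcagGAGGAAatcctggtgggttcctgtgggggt
Pf4 (chr5:90772355-90772434, plus strand): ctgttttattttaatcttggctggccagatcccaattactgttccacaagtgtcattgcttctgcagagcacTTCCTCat
F13a1 (chr13:37050245-37050324, minus strand): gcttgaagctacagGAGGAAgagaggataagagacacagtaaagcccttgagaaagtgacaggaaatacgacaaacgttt
Cd53 (chr3:106790150-106790229, minus strand): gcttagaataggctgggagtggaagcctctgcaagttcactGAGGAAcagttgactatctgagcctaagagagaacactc
Laptm5 (chr4:130913236-130913315, plus strand): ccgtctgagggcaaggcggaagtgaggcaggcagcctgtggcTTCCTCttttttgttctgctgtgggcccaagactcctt
Lyz2 (chr10:117282273-117282352, minus strand): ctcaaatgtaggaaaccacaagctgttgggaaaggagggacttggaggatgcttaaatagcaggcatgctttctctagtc

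Where a gene has several annotated starts, the one with the most matches in the stretch is shown. F13a1 is such a gene, and at another of its starts the match began 14 bases after the start, outside the stretch. In the stretches shown the match lay between 66 bases before the start, in F13a1, and 8 bases before it, in Pf4. Those in C1qb, Stab1, F13a1 and Cd53 were on the sense strand and those in Mrc1, Pf4 and Laptm5 on the other. Lyz2 had no match in the stretch shown.

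**Figure D1:**
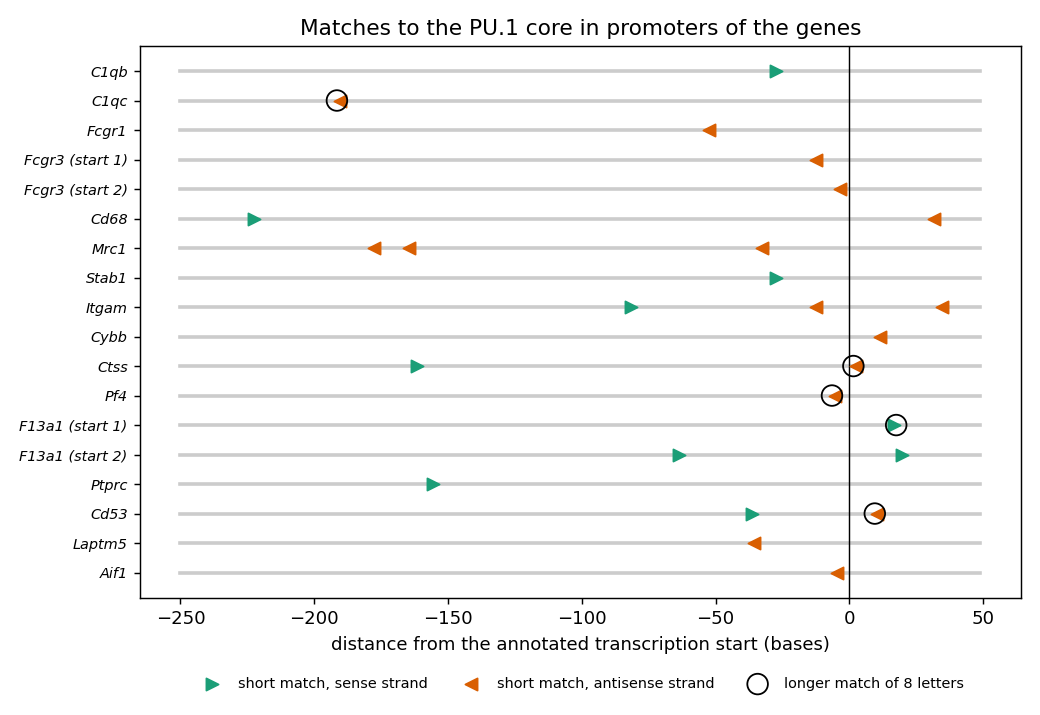
Positions of GAGGAA (triangles, pointing right on the sense and left on the antisense strand) and of GAGGAAGT (circles) from 250 bases before to 49 after the start base, for each promoter of the 16 genes with a match. Genes with several annotated starts have a line for each. Matches lie on both strands, and those of C1qb and Stab1 begin 30 bases before the start.

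Levels below are normalized probe set signals, and a difference is the log2 difference of quantile-normalized log2(signal + 16), epithelium minus mesenchyme, with its standard error from limma. A negative difference is therefore higher in mesenchyme. Ratios of mesenchyme 1 to the mean of mesenchyme 2 and 3 are taken on the same scale, so that mean is geometric and includes the offset of 16. With 3 arrays per layer the number of arrays limits every value. The labels do not tie arrays to embryos, so p-values measure the spread between these samples, which may be technical. In bulk tissue, fewer cells of a type and less RNA per cell cannot be told apart. Deposited array medians ran from 126 to 254. The array labelled mesenchyme 1 stood apart from the others. It correlated at 0.784 and 0.755 with mesenchyme 2 and 3 across genes, where those correlated at 0.981, so the tests were run with and without it. The 8 measured liver markers summed to 278118 signal units on mesenchyme 1 and to between 330.0 and 1344 on the other 5 arrays, and albumin (Alb) read 58365 there and 100.3 to 216 elsewhere. None of the 5 liver markers tested had an adjusted or an unadjusted p under 0.05 in limma. The 12 epithelial markers summed to 104170.3 on mesenchyme 1, 21224 and 3145 on mesenchyme 2 and 3, and 271361 to 298037 on the epithelial arrays. The label of mesenchyme 1 may therefore be wrong or not describe all of its cells, which bears on every value that rests on all 6 arrays. The part of these other cells in the results below was not tested.

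Most of the macrophage and leukocyte genes read higher in mesenchyme, and few of the single genes passed the test with all 6 arrays. The difference was below 0 for 28 of 30 genes, against 44.3% of all 18193 genes, and the median was -1.82, where that over all genes was 0.10. Stab1, a scavenger receptor of macrophages and endothelium, and Laptm5, a lysosomal membrane protein of leukocytes, were higher in mesenchyme at 6.07-fold and 7.46-fold. Without mesenchyme 1 27 of 30 were below 0, against 47.1%, the median was -1.37 (0.044 over all genes), and Csf1r, C1qb, Mrc1, Lyz2, Pf4, F13a1 and Cd53 were higher in mesenchyme beside those 2. No gene of the group passed as higher in epithelium in either limma fit, where 1.95% of all tested genes did so, and 6.37% without mesenchyme 1. None was higher in epithelium at an unadjusted p under 0.05 either, a level at which the share of all genes was not computed.

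By limma with Benjamini-Hochberg adjustment over all genes tested, 2 of the 26 genes past the filter on dim probe sets were higher in mesenchyme, where 4.03% of all 13717 tested genes were and 5.98% passed in either direction. Without mesenchyme 1 these were 9 of 26, where 8.17% of 13587 genes were and 14.5% passed in either direction. Before adjustment, 17 genes had p under 0.05, all higher in mesenchyme, against 10.9% of all tested genes in that direction, and 15 did so without mesenchyme 1, against 14.2%. All 3 mesenchymal arrays lay above all 3 epithelial arrays for 18 of the 30 genes, against 11.7% of all 18193 genes, and mesenchyme 2 and 3 alone did so for 18, against 19.7%. The 4 genes under the filter, C1qc, Itgam, Cybb and Aif1, are given by their values only. Both calls with all 6 arrays were lost without epithelium 1, epithelium 2, mesenchyme 2 or mesenchyme 3, and that of Stab1 also without epithelium 5 (adjusted p = 0.0609 in limma). The count of 9 was 5 when epithelium 1 was left out as well (Mrc1, Stab1, Lyz2 and F13a1 of the 9, and Cd14), 12 without epithelium 2 and 0 without mesenchyme 2 or mesenchyme 3, which leaves 1 array in that layer.

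**Figure D2:**
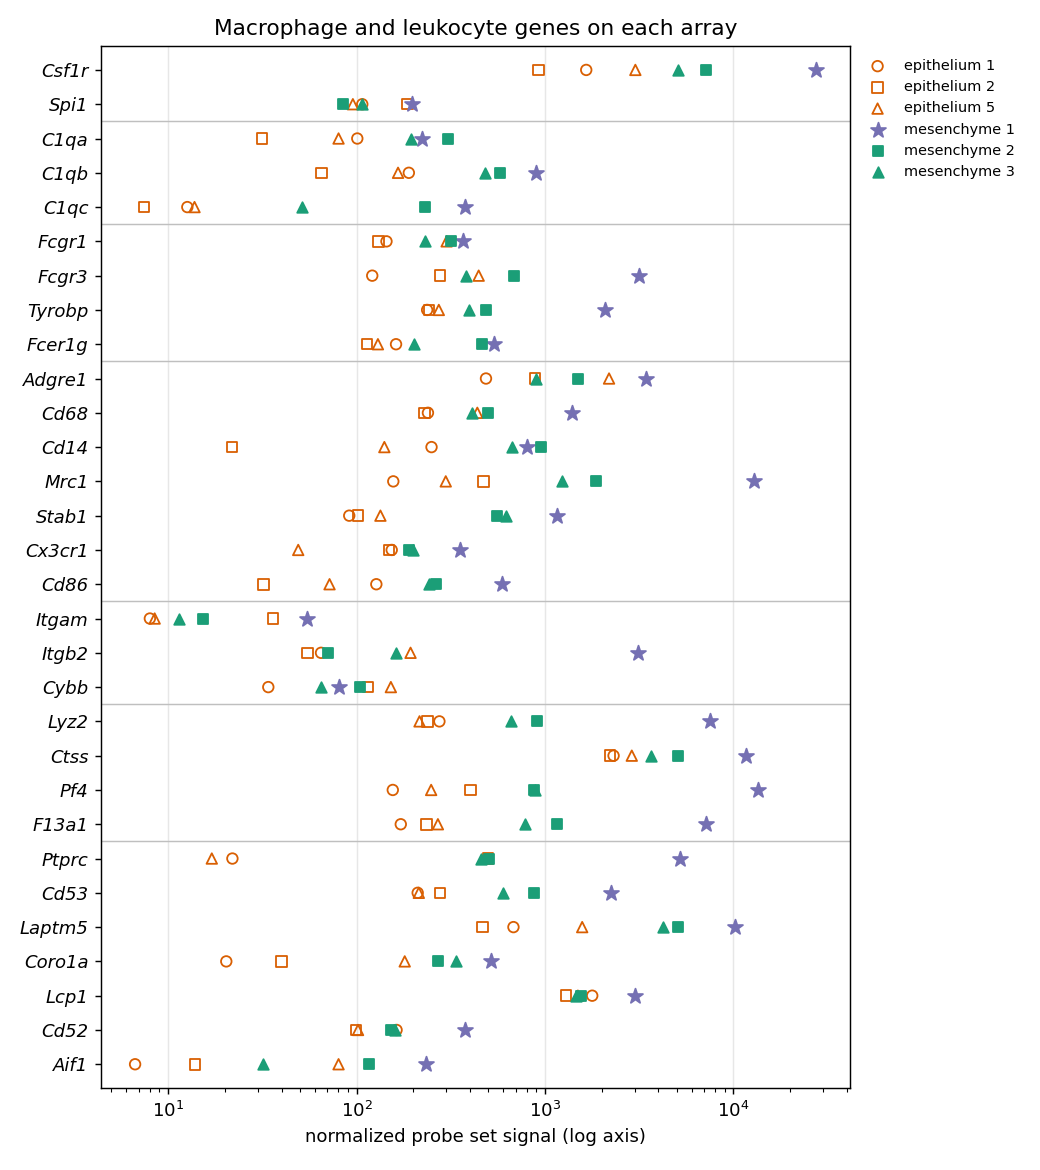
Normalized signal of the 30 genes on each array, on a log axis, with open orange symbols for epithelium, green for mesenchyme 2 and 3 and a purple star for mesenchyme 1. Grey lines separate the roles, in the order of the text except that the integrin and oxidase genes follow the surface receptors. The star is the rightmost point for 27 of 30 genes, and for 18 genes every mesenchymal point lies to the right of every epithelial one.

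Of the receptor and the transcription factor that set the lineage, Csf1r passed without mesenchyme 1 and Spi1 in neither fit. Csf1r, the receptor macrophages need to survive, read 1657, 925 and 3019.6 on epithelium 1, 2 and 5, and 27484, 7168 and 5105 on mesenchyme 1, 2 and 3. The layers did not overlap, mesenchyme 1 was 4.53 times the geometric mean of mesenchyme 2 and 3, and epithelium 5 was the highest epithelial array. Its difference was -2.58 ± 0.697 (adjusted p = 0.0835 in limma) and -1.88 ± 0.491 without mesenchyme 1 (adjusted p = 0.0463). The other probe sets for Csf1r had differences of -2.72 and -1.20 with all 6 arrays. Spi1, which encodes PU.1, read 107, 186 and 95.7 in epithelium and 198, 84.5 and 107 in mesenchyme. Its arrays overlapped. The log2 difference was 0.025 ± 0.520 with all arrays (adjusted p = 0.982 in limma), the other scalings put it on either side of 0, and leaving out mesenchyme 1 gave 0.34 ± 0.496 (adjusted p = 0.741).

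The 3 chains of complement C1q, which form the recognition molecule of the classical pathway and are made by macrophages, were each separated between the layers on all arrays. C1qa read 31.6 to 101 in epithelium and 195 to 308 in mesenchyme (-1.64 ± 0.525, adjusted p = 0.136 in limma, and -1.69 ± 0.570 without mesenchyme 1, adjusted p = 0.108). For C1qb the epithelial arrays read 189.6, 65.1 and 166, and the mesenchymal ones 891, 578 and 483. The difference in C1qb, -2.16 ± 0.501, missed the threshold narrowly with all 6 arrays (adjusted p = 0.0526) and passed without mesenchyme 1 (-1.94 ± 0.494, adjusted p = 0.0418). It is read from a probe set of the _x_at kind, which can match related transcripts. Its probe set of the unique kind had a difference of -1.88 and did not pass with all 6 arrays (adjusted p = 0.179 in limma with only unique probe sets). There epithelium 5 read 129 and mesenchyme 3 read 132. The mean of all C1qb probe sets passed with all 6 arrays (-2.54, adjusted p = 0.0242). C1qc, under the filter, read 7.45 to 13.8 in epithelium and 379, 232 and 51.6 on mesenchyme 1, 2 and 3. Mesenchyme 1 was at 0.916, 1.67 and 3.05 times the mean of mesenchyme 2 and 3 for C1qa, C1qb and C1qc.

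Among the Fc receptors and their adaptors none of the 4 passed in either limma fit, and 2 had an unadjusted p under 0.05 with all arrays and 1 without mesenchyme 1. Fcer1g, the gamma chain that carries an ITAM, read 114 to 162 in epithelium and 202 to 534 in mesenchyme (-1.36 ± 0.486, adjusted p = 0.177 in limma, and -1.12 without mesenchyme 1, adjusted p = 0.190). Tyrobp, the ITAM adaptor DAP12, read 237, 242 and 273 in epithelium and 2073, 489 and 393 in mesenchyme, so the layers were separated but mesenchyme 1 was 4.60 times the mean of the other mesenchymal arrays. Its difference of -1.50 with all arrays was -0.79 without mesenchyme 1 (adjusted p = 0.252 and 0.170). The Fc gamma receptors overlapped between layers. Fcgr3, the low-affinity receptor, read 445 on epithelium 5 against 383 on mesenchyme 3 and 3146 on mesenchyme 1, and its difference moved from -1.86 to -1.02 without the latter (adjusted p = 0.272 and 0.324). Fcgr1, the high-affinity receptor, read 131 to 301 in epithelium and 229.6 to 365 in mesenchyme (-0.69, adjusted p = 0.463, and -0.55 without mesenchyme 1, adjusted p = 0.536).

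Of 7 macrophage surface receptors, Stab1 passed in both fits and Mrc1 without mesenchyme 1. Stab1 read 91.5, 102 and 134 in epithelium and 1158, 554 and 620.4 in mesenchyme, a difference of -2.60 ± 0.432 (adjusted p = 0.0166 in limma), or -2.31 ± 0.366 without mesenchyme 1 (adjusted p = 0.00643). It is read from 1 probe set, of the _a_at kind. Mrc1, the mannose receptor CD206, read 157, 471 and 298 in epithelium and 12904, 1858 and 1228 in mesenchyme. Every mesenchymal array was above the epithelial ones, and mesenchyme 1 was 8.46 times the mean of the other 2. The difference fell from 10.5-fold (adjusted p = 0.0749) to 5.38-fold (adjusted p = 0.0152) without that array.

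The co-receptor for bacterial lipopolysaccharide, Cd14, read 250.1, 21.8 and 141 in epithelium and 808, 953 and 668 in mesenchyme. Its layers were apart on all arrays and mesenchyme 1 lay between the other mesenchymal arrays, yet the spread within epithelium was wide, and it missed the threshold with and without mesenchyme 1 (-2.81 ± 0.719, adjusted p = 0.0703 in limma; -2.85 ± 0.792, adjusted p = 0.0570). Cd86, a co-stimulatory ligand, read 32.1 to 127 in epithelium and 241 to 589 in mesenchyme (-2.06, adjusted p = 0.102, and -1.67 without mesenchyme 1, adjusted p = 0.115). Cx3cr1, the fractalkine receptor, read 49.1 to 154 and 190.4 to 355 (-1.06, adjusted p = 0.352, and -0.79 without mesenchyme 1, adjusted p = 0.449). The other probe set for Cx3cr1 read at most 23.5 on any array and had a difference of 0.24. Adgre1, which encodes the F4/80 antigen used to stain mouse macrophages, read 487, 887 and 2189 in epithelium and 3451, 1499 and 892 in mesenchyme. Epithelium 5 thus read above mesenchyme 2 and 3, and the difference was -0.75 ± 0.679 (adjusted p = 0.587), or -0.24 ± 0.619 without mesenchyme 1. Cd68, a lysosomal glycoprotein, also overlapped (230.1 to 438 and 408 to 1384), at -1.14 with and -0.62 without mesenchyme 1 (adjusted p = 0.313 and 0.385).

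**Figure D3:**
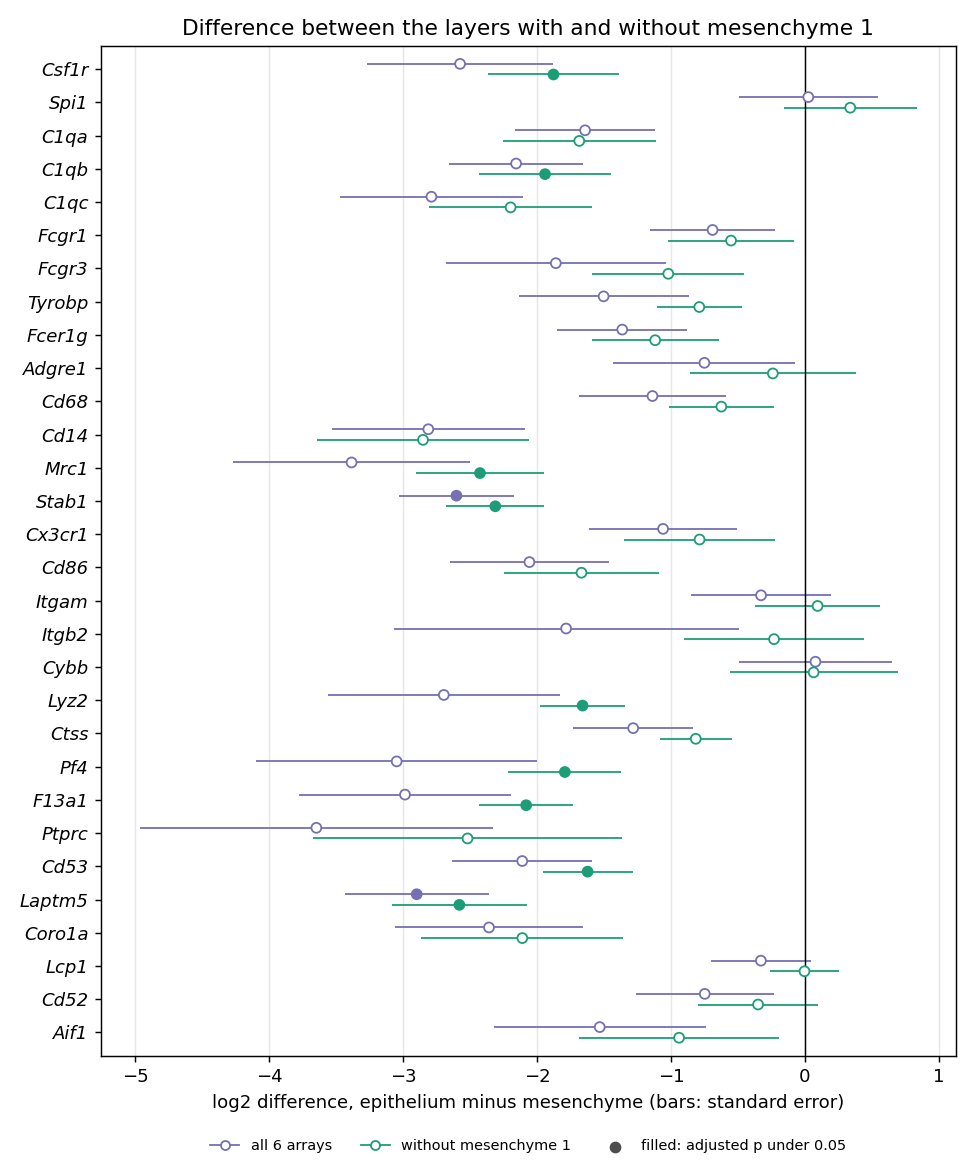
Log2 difference of each gene, epithelium minus mesenchyme, with its standard error, for all 6 arrays (purple) and without mesenchyme 1 (green). Filled points passed adjusted p 0.05. With all arrays 2 genes are filled and without mesenchyme 1 there are 9, all to the left of 0.

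The secreted and lysosomal proteins were the role in which mesenchyme 1 was furthest from the other mesenchymal arrays, with a median excess of 3.07 log2 units over 4 genes. Lyz2, lysozyme of myeloid cells, read 275, 238 and 216 in epithelium and 7497, 907 and 658 in mesenchyme. Pf4, platelet factor 4, a chemokine of megakaryocytes that some tissue macrophages also express, read 156, 403 and 249 and then 13493, 874 and 882. F13a1, the coagulation factor XIII A chain made by macrophages and megakaryocytes, read 172, 235 and 270.4 in epithelium and 7166, 1157 and 783 in mesenchyme. All 3 were separated between the layers with and without mesenchyme 1.

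With all 6 arrays the differences of these genes had wide errors and none passed in limma: Lyz2 was at -2.70 ± 0.866 (adjusted p = 0.138), Pf4 at -3.05 ± 1.05 (adjusted p = 0.163) and F13a1 at -2.99 ± 0.794 (adjusted p = 0.0794). Without mesenchyme 1 the differences were smaller and all 3 passed, Lyz2 at -1.66 ± 0.318 (adjusted p = 0.0136), Pf4 at -1.79 ± 0.423 (adjusted p = 0.0316) and F13a1 at -2.08 ± 0.350 (adjusted p = 0.0082). Ctss, the lysosomal protease cathepsin S, read 2218 to 2890.4 in epithelium and 3651 to 11703 in mesenchyme, and missed the threshold in both fits (adjusted p = 0.168 and 0.0990).

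Pan-leukocyte genes gave Laptm5 in both fits and Cd53, a tetraspanin of leukocytes, without mesenchyme 1. Laptm5 read 681, 467 and 1577 in epithelium and 10229, 5063 and 4256 in mesenchyme (-2.90 ± 0.539, adjusted p = 0.0249 in limma; -2.58 ± 0.505 without mesenchyme 1, adjusted p = 0.0148). This call rests on an _x_at probe set. Of the other 4 probe sets for Laptm5, the 3 that can match several transcripts had differences of -1.61, -1.11 and -0.57, and the only one of the unique kind had 0.55, with 83.3 on mesenchyme 1. With the mean of all its probe sets the difference was -1.13 (adjusted p = 0.134). Cd53 read 211, 277 and 214 in epithelium and 2232, 879 and 599 in mesenchyme, with no overlap. Its difference was -2.11 ± 0.522 (adjusted p = 0.0649 in limma), and -1.62 ± 0.336 without mesenchyme 1 (adjusted p = 0.0186). The other probe set for Cd53 was dim and overlapped between the layers. It read 67.9, 71.3 and 4.07 in epithelium and 33.0, 83.3 and 60.5 in mesenchyme (-0.45).

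Ptprc, the leukocyte phosphatase CD45, read 21.9 on epithelium 1, 499 on epithelium 2 and 17.1 on epithelium 5. Its mesenchymal values were 5182, 503 and 457, so epithelium 2 lay at the level of mesenchyme 2 and 3, and the difference was -3.65 ± 1.32 (12.5-fold, adjusted p = 0.183 in limma). Without mesenchyme 1 it was -2.52 ± 1.16 (5.73-fold, adjusted p = 0.228). These values are from a probe set of the _a_at kind. The other probe set for Ptprc, dim at 3.18 to 96.9, had a difference of 0.69 with all 6 arrays. Coro1a, an actin regulator of leukocytes, was separated between layers (20.4 to 180.2 and 270.1 to 519.9) and did not pass (-2.36, adjusted p = 0.111, and -2.11 without mesenchyme 1, adjusted p = 0.125). Its other probe sets had differences of -4.04 and -0.40, and with the mean of all 3 Coro1a passed (-3.20, adjusted p = 0.0269). Aif1 (IBA1), an actin-binding protein of macrophages, read 6.68, 13.9 and 80.3 in epithelium and 234, 116 and 32.0 in mesenchyme (-1.53, and -0.94 without mesenchyme 1, untested). Cd52, a small glycoprotein of lymphocytes and monocytes, read 99.2 to 163 and 152 to 375 (-0.75, and -0.35 without mesenchyme 1, adjusted p = 0.470 and 0.697). Lcp1, the actin bundler L-plastin, differed least among the tested genes of this role (1290.4 to 1782 in epithelium, 1468 to 2998 in mesenchyme; -0.33, adjusted p = 0.664, and -0.0035 without mesenchyme 1, adjusted p = 0.996).

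Integrin and oxidase genes of phagocytes were not separated on the probe sets used. Itgb2, the beta 2 integrin chain CD18, read 3135, 71.0 and 162 in mesenchyme and 64.8, 54.8 and 194 in epithelium, so mesenchyme 1 alone was high. Without mesenchyme 1 its difference moved from -1.78 ± 1.29 to -0.23 ± 0.670 (adjusted p = 0.494 and 0.881 in limma). Itgam, its partner CD11b, read at most 54.6 on any array. Cybb, the catalytic chain of the phagocyte NADPH oxidase, read at most 152 (0.078), and its other probe sets had differences of -0.85, with 233 on mesenchyme 1, and -0.69.

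Mesenchyme 1 was the highest of all 6 arrays for 27 of the 30 genes, against 23.0% of all genes. The exceptions were C1qa, Cd14 and Cybb. For 8 genes it was over 4 times the next highest array on the log2(signal + 16) scale, as it was for 964 of all 18193 genes. The 30 signals summed to 120839 on mesenchyme 1, 32871 and 24925 on mesenchyme 2 and 3, and 10147, 9859 and 15491 on epithelium 1, 2 and 5. Leaving mesenchyme 1 out lowered the fold by more than 1.5 times for 11 genes. Within epithelium, array 5 was the highest for 15 of 30 genes, against 36.9% of all genes.

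Other macrophage genes gave 3 of 30 tested genes higher in mesenchyme with all 6 arrays and 5 of 29 without mesenchyme 1, where 1 was higher in epithelium. Mpeg1, the macrophage perforin, read 126, 197 and 169 in epithelium and 4594, 1729.7 and 922 in mesenchyme (-3.47 ± 0.594, adjusted p = 0.0190 in limma). C3ar1, the receptor for complement C3a, had a difference of -2.27 (adjusted p = 0.0250). Igf1 had -1.92 (adjusted p = 0.00757), and fibroblasts also make this growth factor. The list's median over its 39 measured genes was -1.05, and -0.56 without mesenchyme 1. The 3 genes above passed again without that array (Mpeg1 at -2.92, C3ar1 at -2.14 and Igf1 at -2.04), beside Apoe and Cd36, while Rnase4 was higher in epithelium.

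Neither ligand of the CSF1 receptor differed past the threshold. Csf1 read 480.5, 223 and 617 in epithelium and 745, 587 and 514 in mesenchyme (-0.56, adjusted p = 0.542 in limma, and -0.43 without mesenchyme 1, adjusted p = 0.631), and Il34, under the filter, read 27.3 to 117 and 35.0 to 87.8. Of 13 tested genes among these ligands and lineage factors, Zeb2 was higher in mesenchyme (-3.56, adjusted p = 0.0150), a repressor that mesenchymal cells also express. Without mesenchyme 1, Zeb2 (-3.80) and Batf3 (-1.99, adjusted p = 0.0240) were higher in mesenchyme and Cebpa (3.84, adjusted p = 0.00281), Myb (2.03, adjusted p = 0.00480) and Runx1 in epithelium. The brightest genes of this list are Id2, an inhibitor of helix-loop-helix factors, at 4274 to 14367 in epithelium and 4302 to 11487 in mesenchyme, and Maf, a factor of mature macrophages, at 1090.5 to 3075 and 2609.6 to 6488. Both overlapped between the layers. Runx1, a factor of blood formation, read 2577, 1789.7 and 5080.0 in epithelium and 1957, 541 and 378 in mesenchyme. Its difference of 1.93 ± 0.674 (adjusted p = 0.169) became 2.69 ± 0.462 without mesenchyme 1 (adjusted p = 0.00885), higher in epithelium.

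Signalling genes downstream of ITAMs and integrins had 2 of 19 tested genes higher in mesenchyme, and 3 of 19 without mesenchyme 1. Plek, the leukocyte protein pleckstrin, read 183, 466 and 578 in epithelium and 4873, 2298 and 1936 in mesenchyme (-2.87 ± 0.546, adjusted p = 0.0269 in limma). Nckap1l, the WAVE complex subunit HEM1 of blood cells, had -1.84 ± 0.386 (adjusted p = 0.0367). Both passed without mesenchyme 1 too, at -2.54 and -1.62.

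Chemokines and their receptors had 1 of 13 tested genes past the threshold, and 2 of 11 without mesenchyme 1, and complement genes other than C1q had 1 of 8 in both fits. Cxcl12, the ligand of Cxcr4, was higher in mesenchyme (-1.86, adjusted p = 0.0235 in limma), as was Serping1, the C1 inhibitor (-3.25 ± 0.715, adjusted p = 0.0435). Without mesenchyme 1 they were at -2.01, on another probe set, and -2.49 (adjusted p = 0.00358 and 0.00592). Serping1 read 15286, 3354 and 2241 in mesenchyme and 358 to 746 in epithelium. Cxcl2, a neutrophil attractant, read 148, 15380.2 and 6309 in mesenchyme and 2132 to 2634 in epithelium, so mesenchyme 1 was the lowest array and Cxcl2 was higher in mesenchyme without it (-2.08, adjusted p = 0.0117). Cd59a, an inhibitor of complement lysis, read 866 to 1682 in epithelium and 1209 to 2358 in mesenchyme. MHC class II genes had 0 of 5 past the threshold in limma, 0 of 4 without mesenchyme 1, and in both fits 0 at an unadjusted p under 0.05. Cd74, the invariant chain, read 223 to 338 in epithelium and 289 to 553 in mesenchyme, and H2-DMa 172 to 375 and 323 to 419.7.

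Markers of other blood cells separated mesenchyme 1 from mesenchyme 2 and 3. All 12 measured neutrophil and granulocyte precursor genes were highest on mesenchyme 1, and their signals summed to 44806 there, 1276 and 1656 on mesenchyme 2 and 3 and 701 to 1683 in epithelium. For Ngp, neutrophilic granule protein, mesenchyme 1 read 7340.3 against 89.1 to 345 elsewhere, and for the protease Mmp9 it read 6326 against 127 to 477. Prtn3, proteinase 3 of granules, passed with all 6 arrays (-2.98, adjusted p = 0.0413 in limma), at 923, 219.8 and 357 in mesenchyme and 25.5 to 71.8 in epithelium, and was under the filter without mesenchyme 1. Of the 8 Kupffer cell genes, those of liver macrophages, 7 were highest on mesenchyme 1, with sums of 6412 there and 201 to 424 on the other arrays; 1 was past the filter, and it had neither an adjusted nor an unadjusted p under 0.05 in limma. For 5 of the 8, mesenchyme 1 was over 4 times the next highest array, on the log scale with the offset. Fcna, ficolin A, read 1361 on mesenchyme 1 and 13.6 to 119 elsewhere. Nr1h3, ranked with Fcna as brightest by its mean log level over all 6 arrays, was dim on each. It read 131 on mesenchyme 1 and 3.10 to 162 elsewhere, so it did not share the excess on mesenchyme 1. Cd163, a scavenger receptor named here after its values were seen, read 2754 on mesenchyme 1 and 3.47 to 8.25 elsewhere.

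Of the 7 measured microglia genes, 6 were higher on mesenchyme 2 and 3 than on every epithelial array, against 19.7% of all genes. With all 6 arrays 1 of 4 tested passed, and without mesenchyme 1 these were 3 of 4, all higher in mesenchyme. The first was Tmem119 (-3.68 ± 0.487, adjusted p = 0.00877 in limma, and -4.15 without mesenchyme 1), which osteoblasts and other mesenchymal cells also express, at 2969, 6505 and 6327 in mesenchyme and 267 to 659.8 in epithelium. Sall1 is also a factor of urogenital mesenchyme, and it read 711, 3839.7 and 7929 in mesenchyme against 1323 to 1581 in epithelium. It passed without mesenchyme 1 (-1.92, adjusted p = 0.0107), as did Olfml3 (-2.19, adjusted p = 0.0114). The mast cell and lymphocyte lists had 0 of 5 and 0 of 3 tested genes past the threshold in limma in either direction, and 1 and 0 at an unadjusted p under 0.05. Mast cell signals summed to 21536 on mesenchyme 1, 15302 and 5493 on mesenchyme 2 and 3 and 7504 to 10317 in epithelium, and the brightest genes were Gata2 (2909 to 4942 in epithelium, 1655 to 7378 in mesenchyme) and Hdc (1979 to 2670.0 and 426 to 6443), which other cells also express. Lymphocyte signals summed to 4023, 709.9 and 1016 in mesenchyme and 778 to 1331 in epithelium, and the brightest genes were Cd8a (213 to 631 in epithelium, 67.3 to 368 in mesenchyme) and Il7r (1262, 213 and 137 in mesenchyme, with epithelium 1 the highest epithelial array).

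Because Pf4 and F13a1 are also genes of megakaryocytes, the platelet list is given beside them. Its 8 measured genes summed to 10908 on mesenchyme 1, 2335 and 2599 on mesenchyme 2 and 3 and 1851 to 2181 in epithelium. Ppbp, pro-platelet basic protein, read 5060.2, 287 and 258 in mesenchyme and 354 to 498 in epithelium, so mesenchyme 2 and 3 lay below the epithelial arrays. Itga2b, the platelet integrin chain CD41, read 646, 539.6 and 682 in mesenchyme and 796 to 958 in epithelium. Only Vwf passed, in both fits (-4.25, adjusted p = 0.0155 in limma, and -3.97 without mesenchyme 1), von Willebrand factor, which endothelium also makes. Erythroid genes had 0 of 8 past the threshold in limma and 1 at an unadjusted p under 0.05. Embryonic globin Hbb-y read 2301 on mesenchyme 1, 56536 on both other mesenchymal arrays and 11189 to 49385 in epithelium. Quantile normalization gives equal ranks the same value, so the repeated 56536 does not mean equal deposited signals. Slc4a1, the red cell anion exchanger, read 9469, 749.7 and 483 in mesenchyme and 58.9 to 371 in epithelium.

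Stab1 and Mrc1 are known in endothelium as well as in macrophages, and endothelial genes had 8 of 16 tested higher in mesenchyme with all arrays and 11 of 16 without mesenchyme 1. Their median difference was -3.43 and -3.27. Aplnr (-8.14), Plvap (-5.58 ± 0.375, adjusted p = 0.00231 in limma) and Sox17 (-5.10) were the largest. Endothelial signals summed to 71671, 41995 and 45320.4 in mesenchyme and 2447 to 4214 in epithelium. The part of endothelium in the values of Stab1 and Mrc1 was not tested. Of 12 mesenchymal markers, 6 were higher in mesenchyme, and 10 without mesenchyme 1, led by Tbx4 (-4.85), Prrx1 (-3.29) and Col1a2 (-3.23). Of 12 epithelial markers, Grhl2 (4.83) and Cldn3 (4.57) were higher in epithelium, and all 12 without mesenchyme 1.

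**Figure D4:**
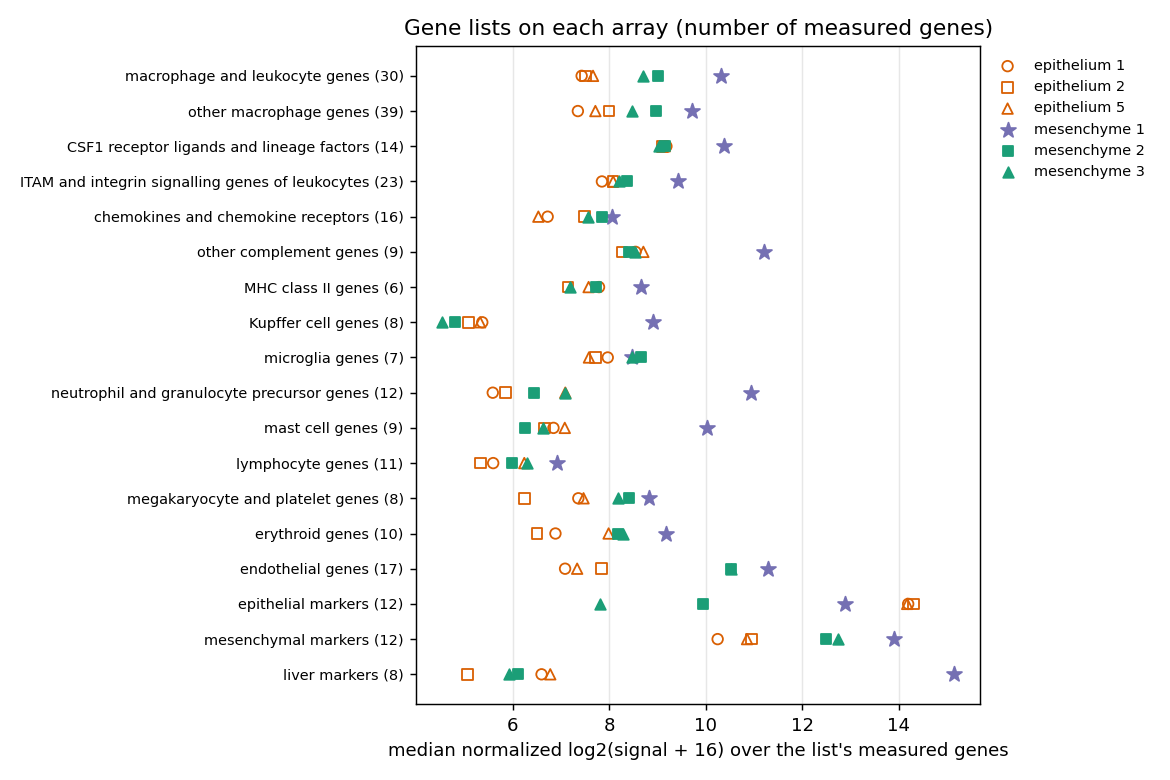
Median normalized log2(signal + 16) over the measured genes of each list on each array, with symbols as in the plot of single genes and the number of genes in parentheses. For the 30 macrophage and leukocyte genes the medians are 7.43 to 7.66 in epithelium, 9.01 and 8.70 on mesenchyme 2 and 3 and 10.32 on mesenchyme 1, and for liver markers mesenchyme 1 lies alone at 15.15.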

How the data were processed

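The authors deposited linear probe set intensities. They used GCOS, per the submitters' processing notes, with version and settings not given in the sources used here. Trimmed by 2% at each end, the array means average 1500, as computed from the table. It has no detection calls, so which dim signals are above background is not known. The offset of 16 shrinks the fold changes of dim genes, and these have no bound. Of 45101 probe sets, 64 controls were left out, and 34945 name 1 gene, 932 several and 9160 none here. Values were quantile normalized after log2(signal + 16) and fitted per gene by lmFit and eBayes of limma 3.58.1, run under R 4.3.3 (an intensity trend, no covariate, 2-sided, Benjamini-Hochberg over all genes, threshold 0.05). Probe sets with a mean above the 40th percentile were kept, and the brightest per gene was used. Without mesenchyme 1, normalization and filter were repeated on 5 arrays. The code was tested on simulated data.

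The 30 genes and the 17 other lists (216 of 238 genes measured) were chosen with earlier results of these data known. Named from the other lists are up to 3 genes past the threshold, ranked by the size of their difference, or the 2 brightest where fewer than 2 passed, and Csf1, Il34 and Runx1. Cd163 and the genes that passed only without mesenchyme 1 stand outside that rule. The stretch of promoter shown was chosen after the matches were seen. Alternatives were other offsets, normalizations, filters, probe sets, variance models, array weights, a replicate block and each array left out.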

Additional observations from a re-analysis of the deposited data

How the results depend on the processing

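The 820 genes past the threshold and the 27 genes of the other lists stayed within 1.5 times under other offsets, normalizations, filters, probe sets and variance models. The 2 macrophage and leukocyte genes past it became 4 with an offset of 64, 4 without normalization, 7 with median centring, 1 with the filter at the 60th percentile and 0 with only unique probe sets, where Stab1 has none and Laptm5 another one. Stab1 was under the filter at the 60th percentile, and Laptm5 still passed there (adjusted p = 0.0218 in limma). The cause of the other changes was not tested. Array weights, whose estimate stopped early, gave 5109, 15 and 85 (all genes, the macrophage and leukocyte genes, the other lists). With the replicate block, which leaves little residual freedom, the 3 counts were 0, 0 and 0. Numbers 1 and 2 are shared by the layers, and same-numbered arrays deviated at r = -0.045 and -0.021 across genes. The deviations are from layer means that include mesenchyme 1, so they cannot tell whether same-numbered arrays share an embryo. Leaving out 1 array gave 142 to 1975 genes, 0 to 9 of the macrophage and leukocyte genes and 10 to 54 of the other lists. Without mesenchyme 1, settings chosen after seeing the data gave 6 to 9 genes, and leaving out a further array 0 to 12. Differences of single genes changed sign in 7 cases. Spi1 was at -0.10 without normalization, -0.022 with array weights, -0.24 without epithelium 2, -0.20 without mesenchyme 2 and -0.058 without mesenchyme 3, and reached 0.34 without mesenchyme 1. Laptm5 was at 0.55 with only unique probe sets, and Lcp1 at 0.21 with array weights. The mean of probe sets gave 3 genes, C1qb, Coro1a and Stab1, with Laptm5 at -1.13 (adjusted p = 0.134 in limma). Of the 11 macrophage and leukocyte genes with several probe sets, 7 had the same sign on all of them. The median difference over all tested genes was 0.12, 0.06 without normalization and 0.23 with median centring. With 3 arrays per layer, dim genes such as C1qc, Itgam, Cybb and Aif1 carry no bound.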
